A study of Mus musculus with 17 samples.

Results

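The 33 genes described here make, sense or carry cholesterol and make or remodel fatty acids. They were taken by symbol from a fixed list, out of 24537 genes in each of 17 RNA libraries of sorted mouse T cells. Every one of the 33 was listed for all libraries, though Fads2, Scd1 and Tm7sf2 had 0 reads in some. By role they comprise 4 sterol regulators, 8 genes of the mevalonate and prenyl steps, 11 genes of the later sterol steps, 1 sterol carrier, 3 genes of fatty acid synthesis and 6 genes of fatty acid elongation and desaturation.

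Cholesterol and fatty acid synthesis share a control system. The transcription factors encoded by Srebf1 and Srebf2 are held in the endoplasmic reticulum by their escort Scap and by Insig1 when sterols are plentiful. When sterols are scarce they are cut, enter the nucleus and switch on the enzyme genes of both routes, Insig1 among them. T cells that divide after activation need both routes for new membrane, and the mevalonate route also supplies the prenyl groups that anchor small GTPases.

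Libraries were made with Smart-seq2, a full-length protocol for small cell numbers, from lymphocytes purified by flow cytometry. Airway cells (3 libraries) came from bronchoalveolar lavage and reporter node cells (3) from the mediastinal lymph node, which drains the lung. Both came from Gata3-YFP reporter mice, called GATIR, in which a yellow fluorescent protein reports Gata3, the master regulator of Th2 cells, and YFP served in the sort. Node KO cells (4) and node WT cells (3) came from the same node of OTII-transgenic mice, which carry an ovalbumin-specific T cell receptor, with the KO labelled as OTII_Notch1/2-KO and the WT as OTII. Reporter and OTII mice of these groups all had an allergen-driven airway inflammation. Culture KO cells (2) and culture WT cells (2) were naive spleen T cells of the same genotypes, turned into Th2 cells in 7 days with IL-4, on plates coated with anti-CD3/CD28, with antibodies against IFN-γ and IL-12/23 added. Which Cre removes Notch1 and Notch2, and the age of the mice, are not given in the labels. The design text calls the libraries biological replicates, but the column names of the lymph node OTII libraries partly share a first number, whose meaning is not given. Where that number marks a shared source, p-values there measure a spread that may be partly technical.

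Levels are RPKM, reads per kilobase of transcript and megaread, as deposited and then divided by 1 scaling factor per library, and are called scaled RPKM. Each library held 16.3 to 27.5 megareads. Across genes, r between replicate libraries was 0.897 to 0.934 for airway cells, 0.968 to 0.979 for reporter node cells and at least 0.991 for OTII cells. T cell genes were present in every group. Of the Th2 genes, Gata3 averaged 423 and 410 scaled RPKM in airway and reporter node cells and 40.9 to 87.5 over the 4 OTII groups, while Il5 was at 157 and 163 against 0.10 to 1.82. Notch1 fell in node KO cells against node WT cells (log2 fold change -2.06, SE 0.15, adjusted p = 5.51e-05), while Notch2 rose (log2 fold change 0.95, SE 0.11, adjusted p = 5.95e-04). Since RPKM sums all exons of a transcript, it cannot tell a deleted exon from a kept one.

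Promoter sequence was available from RefSeq (GRCm38.p6, the same build as mm10) for 26 of the 33 genes, as windows of 250 bases before and 50 bases after the transcript start. On either strand, TCACNCCA, a core of the sterol regulatory element that binds the Srebf1 and Srebf2 proteins, occurred in 3 of the 26 genes (11.5%), against 4.97% of all 27025 genes with such windows. CCAAT, bound by the factor NF-Y, occurred in 21 of 26 (80.8%), against 41.1% of all genes. CACGTG, an E-box that the Srebf proteins can also bind, occurred in 6 of 26 (23.1%), against 8.09%. A match is a run of letters and does not show that a factor binds. The lines below give the 250 bases before the start for the 3 genes with a TCACNCCA match (Hmgcs1, Msmo1, Srebf2), for the feedback gene Insig1 and for Fads2, which differed most between groups. Each runs 5′ to 3′ on the gene's own strand, and capitals mark TCACNCCA and CCAAT on either strand.
Hmgcs1, chr13:119690101-119690350, plus strand: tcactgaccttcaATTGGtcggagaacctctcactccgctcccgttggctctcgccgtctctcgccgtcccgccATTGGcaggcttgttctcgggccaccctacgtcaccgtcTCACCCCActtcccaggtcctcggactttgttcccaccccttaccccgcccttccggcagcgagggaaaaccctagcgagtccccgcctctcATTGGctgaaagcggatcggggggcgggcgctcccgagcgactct
Msmo1, chr8:64733579-64733828, minus strand: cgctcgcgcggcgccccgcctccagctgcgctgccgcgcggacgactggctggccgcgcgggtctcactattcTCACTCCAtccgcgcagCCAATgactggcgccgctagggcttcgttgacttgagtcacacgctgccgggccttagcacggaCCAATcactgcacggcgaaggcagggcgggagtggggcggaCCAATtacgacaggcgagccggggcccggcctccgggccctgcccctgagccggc
Srebf2, chr15:82147019-82147268, plus strand: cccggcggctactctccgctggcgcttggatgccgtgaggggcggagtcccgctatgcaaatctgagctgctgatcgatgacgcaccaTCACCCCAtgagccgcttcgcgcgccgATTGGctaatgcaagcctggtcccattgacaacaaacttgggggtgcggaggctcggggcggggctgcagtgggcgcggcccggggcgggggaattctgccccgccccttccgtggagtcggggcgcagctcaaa
Insig1, chr5:28071162-28071411, plus strand: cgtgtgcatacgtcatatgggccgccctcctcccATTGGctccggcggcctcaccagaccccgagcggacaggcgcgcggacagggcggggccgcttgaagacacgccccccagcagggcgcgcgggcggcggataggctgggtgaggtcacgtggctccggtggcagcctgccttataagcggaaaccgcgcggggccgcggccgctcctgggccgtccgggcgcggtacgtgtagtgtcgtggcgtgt
Fads2, chr19:10101504-10101753, minus strand: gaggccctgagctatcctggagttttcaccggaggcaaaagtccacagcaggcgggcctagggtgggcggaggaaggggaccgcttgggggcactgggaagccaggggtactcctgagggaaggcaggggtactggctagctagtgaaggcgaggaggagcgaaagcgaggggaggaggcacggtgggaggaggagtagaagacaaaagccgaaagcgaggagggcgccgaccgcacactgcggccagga
Hmgcs1 and Msmo1 hold 3 CCAAT letters each beside their TCACNCCA, Srebf2 and Insig1 hold 1 each, and these 250 bases of Fads2 hold neither.

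Which group held the highest level differed by role. Summed over the 6 elongation and desaturation genes, levels were 81.6 to 96.9 in airway, 51.0 to 69.1 in reporter node, 125 to 154 in node KO, 132 to 157 in node WT, 443 to 501 in culture KO and 469 to 493 in culture WT libraries. Scd2 weighs most in the OTII sums. Elovl5 (mean 55.9 in airway, 40.9 in node KO and 35.0 in node WT cells) and Fads1 (24.4, 13.0 and 11.1) were higher in airway than in node OTII cells. Elovl6, Scd1, Scd2 and Fads2 were lower there. Transcript length also bears on reporter against OTII levels, as given further on. Summed over the 11 later sterol genes the order was another, with 275 to 333 in airway, 227 to 255 in reporter node, 148 to 154 in node KO, 135 to 154 in node WT, 249 to 292 in culture KO and 267 to 288 in culture WT libraries. The airway and culture groups overlapped there, and the node OTII libraries lay below all the rest. The desaturase gene Scd2 was the most abundant member in culture, at 272 ± 21.2 in culture KO cells and 279.8 ± 6.51 in culture WT cells (SD, n = 2 each). In the node it was again the most abundant, at 82.8 ± 7.77 in node KO cells (n = 4) and 88.97 ± 10.2 in node WT cells (n = 3). In reporter mice other genes led: Ebp, a sterol isomerase gene, at 69.01 ± 15.3 in airway cells, and Acly, which splits citrate to acetyl-CoA, at 80.2 ± 12.4 in reporter node cells (n = 3 each). Hsd17b7, a ketoreductase of the sterol steps, was among the least abundant members, at 2.13 in node KO cells, 2.20 in node WT cells, 4.20 in culture KO cells and 3.93 in culture WT cells. In OTII groups the spread between replicates was small, with a median coefficient of variation over the members of 10.1 to 11.5%, close to that of all genes with a mean of at least 1 (7.91 to 13.1%). It was 40.2% in airway cells and 20.6% in reporter node cells, against 43.8% and 25.4% over all genes.

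**Figure D1:**
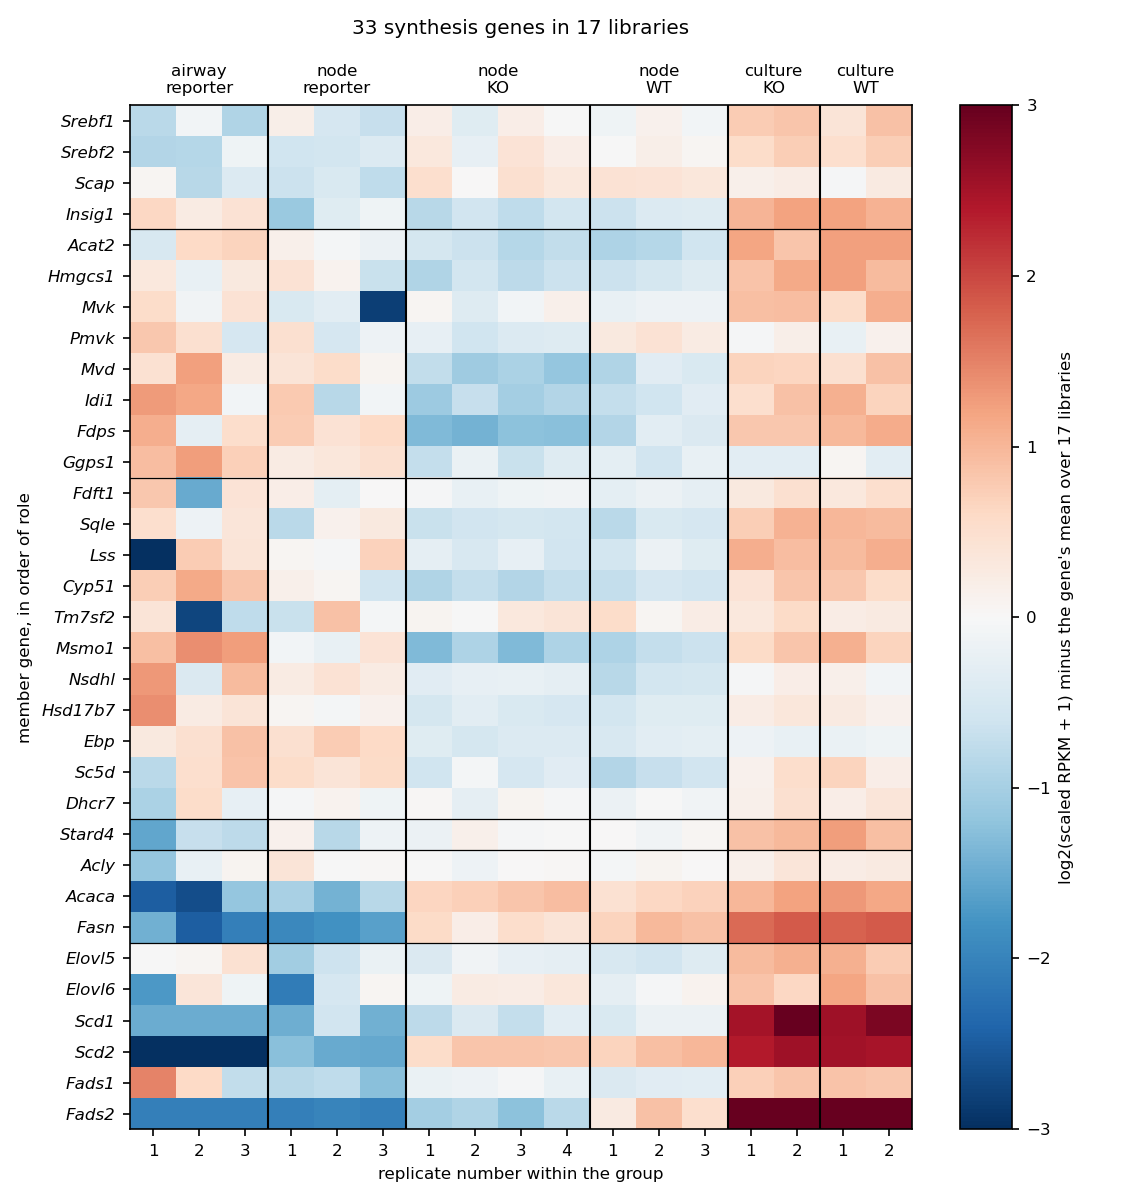
Level of each of the 33 genes (rows, grouped by role between horizontal lines) in each of the 17 libraries (columns, by group between vertical lines), as log2(scaled RPKM + 1) minus the gene's mean over the 17 libraries. Red is above and blue below that mean, with colours saturated beyond 3 in either direction. Of the 33 genes, 22 had their highest mean in a culture group, and Fasn, Acaca, Scd1, Scd2 and Fads2 are bluest in the reporter libraries.

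Lymph node against culture was tested in each genotype with limma on log2(scaled RPKM + 1), with Benjamini-Hochberg adjustment across every gene tested and calls at adjusted p below 0.05. In WT cells 27 of the 33 members were lower in the node, 0 were higher and 6 did not pass, where 17.5% of all 11128 genes tested were lower and 13.5% higher. In KO cells 25 of 33 were lower, 0 were higher and 8 did not pass, where 15.3% of all 11243 genes tested were lower and 13.7% higher. The median log2 fold change of the members was -1.10 in WT and -0.95 in KO cells, against -0.03 and -0.02 over all genes tested. All node libraries lay below all culture libraries for 29 of 33 members in WT (87.9%) and 30 of 33 in KO cells (90.9%). Of all genes tested, 30.8% and 25.9% did so. The reverse held for 2 members in WT and 0 in KO cells, against 27.1% and 23.8% of all genes. These comparisons share no library. They called 24 members in common, 88.9% of the WT and 96.0% of the KO calls. The matching shares over all genes were not computed, so this overlap says nothing particular to the members. Across the 33 members the WT and KO fold changes had r = 0.93 (Spearman's rho 0.94). This r is a description only, since all members of a comparison come from the same libraries.

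Node cells came from inflamed mice and culture cells from naive spleen cells stimulated in a dish, so tissue, stimulus and time cannot be told apart here. In bulk libraries fewer cells of a type and less RNA per cell cannot be told apart either. Cell cycle genes moved the same way: of 24, 8 fell in WT node cells (33.3%, median log2 fold change -0.29) and 14 fell in KO node cells (58.3%, -0.46). Of all genes tested, 17.5% and 15.3% fell. Their summed level was 2239 to 2526 in node WT against 2854 to 3007 in culture WT libraries, and 1770 to 2168 in node KO against 2630 to 3130 in culture KO libraries. Markers of other cells differed as well. Of the B cell genes 2 of 3 tested rose in WT and 3 of 4 in KO node cells, with list sums of 13.3 to 16.2 in node WT against 8.32 to 10.8 in culture WT libraries and 13.9 to 18.6 in node KO against 8.90 to 14.2 in culture KO libraries. The KO sums overlapped. Cd79b went the other way without a call, at 7.73 in node WT against 8.90 in culture WT cells and 7.64 in node KO against 10.4 in culture KO cells. The 1 eosinophil gene tested rose in both genotypes, with Siglecf at 6.47 in node WT against 0.243 in culture WT cells and 3.58 in node KO against 0.271 in culture KO cells, while Epx and Prg2 were at 0.043 or less in all 4 groups. Basophil and mast cell genes summed to 2.35 to 2.72 in node WT against 6.65 to 16.3 in culture WT libraries, and to 0.136 to 0.724 in node KO against 5.78 to 8.12 in culture KO libraries. These sums mostly follow Cpa3, at 0.0545 in node WT against 10.99 in culture WT cells. In WT cells Hdc (2.12 in node against 0.234 in culture) and Cd200r3 (0.299 against 0.0199) went the other way. Of the 2 genes tested in WT cells 1 rose and 1 fell, and the 1 tested in KO cells fell. The part of these lists in the lower synthesis genes was not tested.

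Among the regulators, Insig1 differed most. Insig1 had 13.2, 15.9 and 16.2 in node WT libraries, against 50.97 and 45.6 in culture WT libraries. In KO cells it had 11.6, 13.95, 12.1 and 14.3 in the node, against 44.3 and 50.8 in culture. Every node library lay below every culture library in both genotypes (WT log2 fold change -1.62, SE 0.12, adjusted p = 1.17e-04; KO log2 fold change -1.80, SE 0.12, adjusted p = 3.68e-05). Srebf2, whose product acts mainly on the sterol genes, had 65.04, 73.6 and 67.8 in node WT libraries, against 92.5 and 109 in culture WT libraries, and fell (log2 fold change -0.54, SE 0.11, adjusted p = 0.0109). In KO cells it had 81.5, 54.7, 86.9 and 75.1 in the node, against 96.6 and 109 in culture, which missed the threshold (log2 fold change -0.48, SE 0.18, adjusted p = 0.0843). Node KO replicate 2 was the lowest library for Srebf2, and without it the adjusted p was 0.0332 at a log2 fold change of -0.34. Srebf1, whose product favours fatty acid genes, also fell without overlap, and had 33.9, 40.4 and 34.7 in node WT against 48.7 and 68.3 in culture WT libraries (log2 fold change -0.66, SE 0.16, adjusted p = 0.0183). The KO libraries had 42.5, 28.5, 42.7 and 36.4 in the node against 63.7 and 66.7 in culture (log2 fold change -0.80, SE 0.17, adjusted p = 0.00860). The Srebf1 call in WT cells was lost without node WT replicate 1 (adjusted p = 0.0698) and with no filter on low genes. The call in KO cells was lost without either culture KO library (highest adjusted p = 0.0841). The escort gene Scap did not pass in either genotype, with means of 29.6 in node WT against 24.4 in culture WT cells (log2 fold change 0.28, SE 0.12, adjusted p = 0.121) and 28.6 in node KO against 25.6 in culture KO cells (log2 fold change 0.14, SE 0.15, adjusted p = 0.527). Without culture WT replicate 2 it was higher in WT node cells (log2 fold change 0.43, adjusted p = 0.0217).

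Of the 8 mevalonate and prenyl genes, 6 fell in WT and 7 in KO node cells. Acat2, the thiolase that joins acetyl groups at the start of the route, had 5.74, 6.11 and 7.42 in node WT libraries, against 28.9 and 28.9 in culture WT libraries. The node WT libraries lay far below the culture WT libraries (log2 fold change -2.02, SE 0.13, adjusted p = 5.83e-05), and in KO cells Acat2 had 7.83, 7.18, 6.08 and 6.70 in the node against 27.95 and 22.03 in culture (log2 fold change -1.70, SE 0.14, adjusted p = 9.12e-05). Fdps, which builds farnesyl diphosphate, had 16.99, 25.7 and 23.3 in node WT against 63.7 and 69.9 in culture WT libraries (log2 fold change -1.58, SE 0.17, adjusted p = 5.34e-04). It had 12.2, 11.3, 13.2 and 12.9 in node KO against 57.05 and 57.01 in culture KO libraries (log2 fold change -2.11, SE 0.10, adjusted p = 9.73e-06), the lowest fold change among the sterol enzymes in KO cells. Hmgcs1, which makes HMG-CoA, had 12.2, 13.4 and 14.8 in node WT against 47.5 and 38.96 in culture WT libraries (log2 fold change -1.61, SE 0.13, adjusted p = 1.55e-04). Its KO levels were 10.1, 13.00, 10.9 and 12.1 in the node against 36.3 and 44.3 in culture (log2 fold change -1.72, SE 0.14, adjusted p = 7.11e-05). The node groups did not overlap the culture groups in any of these 3 genes. The isomerase gene Idi1, the decarboxylase gene Mvd and the kinase gene Mvk fell as well. Their WT levels were 7.63, 8.39 and 10.3 in the node against 29.1 and 21.7 in culture for Idi1, 8.74, 13.4 and 12.3 against 24.6 and 32.4 for Mvd and 7.84, 8.20 and 8.27 against 13.97 and 20.7 for Mvk. The log2 fold changes were -1.43, -1.25 and -0.99 in WT and -1.61, -1.64 and -0.99 in KO cells. Ggps1, the branch enzyme that makes geranylgeranyl diphosphate for protein anchors, did not pass, at 6.59 in node WT against 7.98 in culture WT cells (log2 fold change -0.24, SE 0.17, adjusted p = 0.309) and 6.001 in node KO against 6.79 in culture KO cells (log2 fold change -0.17, SE 0.16, adjusted p = 0.481).

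Pmvk, the second kinase of the route, parted from its neighbours. It had 44.98, 49.7 and 42.9 in node WT libraries, against 30.8 and 39.5 in culture WT libraries. It had 30.4, 23.6, 27.3 and 27.5 in node KO libraries, against 35.4 and 40.9 in culture KO libraries. The node WT libraries lay above the culture WT libraries without passing (log2 fold change 0.38, SE 0.13, adjusted p = 0.0654), and the node KO libraries lay below the culture KO libraries (log2 fold change -0.48, SE 0.13, adjusted p = 0.0232). Without culture WT replicate 2 the WT difference passed as higher in the node (log2 fold change 0.55, adjusted p = 0.0165). The KO call was lost without node KO replicate 3 or 4 or either culture KO library (highest adjusted p = 0.191). The difference between the genotypes is tested further on.

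Of the 11 later sterol genes, 9 fell in WT and 8 in KO node cells. Sqle, the squalene epoxidase gene and a slow step of the route, had 11.2, 14.8 and 14.1 in node WT against 42.1 and 40.3 in culture WT libraries (log2 fold change -1.56, SE 0.13, adjusted p = 1.99e-04). In KO cells it had 12.5, 13.5, 14.05 and 13.8 in the node against 34.96 and 43.5 in culture (log2 fold change -1.47, SE 0.12, adjusted p = 8.14e-05). Msmo1, a methyl sterol oxidase gene, had 8.51, 10.03 and 10.7 in node WT against 37.04 and 27.9 in culture WT libraries (log2 fold change -1.63, SE 0.16, adjusted p = 3.02e-04). Its levels in KO cells were 6.24, 8.58, 6.30 and 8.57 in the node against 26.1 and 31.1 in culture (log2 fold change -1.82, SE 0.16, adjusted p = 1.32e-04). All node libraries were below all culture libraries for both genes. Lss, which closes the sterol rings, and Cyp51, a sterol demethylase gene, also fell. In WT cells Lss had 5.76, 7.79 and 6.71 in the node against 18.4 and 20.2 in culture, and Cyp51 had 12.9, 15.3 and 14.6 against 39.4 and 32.9. Their log2 fold changes were -1.39 and -1.28 in WT and -1.40 and -1.41 in KO cells. Sc5d, a desaturase gene near the end of the route, fell to 12.4 in node WT against 28.7 in culture WT cells (log2 fold change -1.14, SE 0.17, adjusted p = 0.00211) and to 16.04 in node KO against 26.7 in culture KO cells (log2 fold change -0.70, SE 0.18, adjusted p = 0.0193). The reductase gene Tm7sf2 averaged 7.21 in node WT and 6.97 in culture WT cells, and the isomerase gene Ebp 35.6 and 40.9. Neither passed in either genotype (log2 fold changes 0.029 and -0.20 in WT, -0.26 and -0.24 in KO). Dhcr7, the reductase that ends one branch of the route, had 20.1, 22.7 and 21.3 in node WT against 26.5 and 29.9 in culture WT libraries (log2 fold change -0.38, SE 0.11, adjusted p = 0.0366). In KO cells Dhcr7 had means of 22.3 in the node and 28.9 in culture, which missed the threshold (log2 fold change -0.36, SE 0.14, adjusted p = 0.0901). Stard4, the cytosolic sterol carrier gene, fell in both genotypes, to 12.9 in node WT against 29.00 in culture WT cells (-1.10 (SE 0.14) on the log2 scale) and to 12.8 in node KO against 25.6 in culture KO cells (-0.95 (SE 0.12)).

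Fdft1, Hsd17b7 and Nsdhl also fell in both genotypes. Fdft1, the squalene synthase gene, had 10.3, 11.5 and 10.6 in node WT against 16.4 and 18.8 in culture WT libraries (log2 fold change -0.65, SE 0.12, adjusted p = 0.00558), and in KO cells means of 11.9 in the node against 17.4 in culture (log2 fold change -0.51, SE 0.11, adjusted p = 0.0111). Hsd17b7 had 1.94, 2.33 and 2.33 in node WT against 4.19 and 3.68 in culture WT libraries (log2 fold change -0.62, SE 0.14, adjusted p = 0.0136), and in KO cells means of 2.13 in the node against 4.20 in culture (log2 fold change -0.74, SE 0.13, adjusted p = 0.00408). At these low levels the added 1 understates the fall of Hsd17b7. Its log2 fold change reached -0.81 in WT and -0.96 in KO cells under other settings. Nsdhl, a dehydrogenase gene that helps remove the methyl groups of lanosterol, had means of 13.7 in node WT against 22.4 in culture WT cells (log2 fold change -0.67, SE 0.14, adjusted p = 0.00911). In KO cells Nsdhl had 16.9, 18.3, 18.5 and 17.97 in the node against 21.2 and 25.3 in culture (log2 fold change -0.35, SE 0.11, adjusted p = 0.0442). Single libraries decided several of these calls. In WT cells the call of Dhcr7 was lost without any 1 of the node WT libraries or without culture WT replicate 2 (highest adjusted p = 0.124), and that of Hsd17b7 without culture WT replicate 1 (adjusted p = 0.0523). In KO cells the call of Nsdhl was lost without node KO replicate 1, 3 or 4 or either culture KO library (highest adjusted p = 0.309), and with a voom test on reads. Without culture KO replicate 2 the KO calls of Sc5d (adjusted p = 0.194) and Fdft1 (adjusted p = 0.113) were lost too. With node libraries of a shared first header number averaged, an alternative chosen after the data were seen, the WT call of Dhcr7 and the KO call of Nsdhl were lost.

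Fatty acid genes held the largest differences of the whole set. Fads2, the desaturase gene at the entry to long polyunsaturated fatty acids, had 3.93, 6.60 and 4.82 in node WT libraries, against 51.4 and 56.2 in culture WT libraries. Its KO levels were 1.04, 1.20, 0.745 and 1.33 in the node, against 41.5 and 52.6 in culture. Every node library lay far below every culture library, those of KO cells farthest (WT log2 fold change -3.18, SE 0.18, adjusted p = 3.92e-05; KO log2 fold change -4.53, SE 0.16, adjusted p = 2.34e-06). Scd1, a desaturase gene that makes monounsaturated fatty acids, had 1.07, 1.51 and 1.51 in node WT against 15.4 and 19.1 in culture WT libraries (log2 fold change -2.95, SE 0.16, adjusted p = 2.89e-05). It had 0.642, 1.08, 0.728 and 1.26 in node KO against 15.03 and 23.6 in culture KO libraries (log2 fold change -3.38, SE 0.21, adjusted p = 2.37e-05). At such low node levels the added 1 understates the fall, and with 0.1 added in its place the log2 fold change of Scd1 was -3.63 in WT and -4.37 in KO cells, and that of Fads2 in KO cells was -5.44. Scd2, its neighbour on chromosome 19 with a related sequence, had 77.6, 92.1 and 97.2 in node WT against 284 and 275 in culture WT libraries (log2 fold change -1.65, SE 0.12, adjusted p = 9.69e-05). The KO libraries had 71.2, 87.2, 87.2 and 85.7 in the node against 257 and 287 in culture (log2 fold change -1.70, SE 0.12, adjusted p = 3.93e-05). How reads that fit both Scd genes were counted is not given in the sources used here, and the 2 genes fell by different amounts.

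The elongase gene Elovl5 and the desaturase gene Fads1, whose products act on the same chains as that of Fads2, fell to 35.00 against 93.8 and to 11.1 against 26.5 in node WT and culture WT cells (log2 fold changes -1.39 and -1.19). In KO cells the fold changes were -1.28 and -0.93. Elovl6, which extends saturated chains, fell to 4.23 in node WT against 10.1 in culture WT cells (-1.08 (SE 0.16) on the log2 scale) and had 3.93, 5.44, 5.34 and 5.81 in node KO against 8.83 and 7.26 in culture KO libraries (log2 fold change -0.57, SE 0.16, adjusted p = 0.0320). Its KO call was lost with no filter on low genes and without node KO replicate 3 or either culture KO library (highest adjusted p = 0.227). Fasn, the fatty acid synthase gene, had 25.4, 31.8 and 29.7 in node WT against 56.1 and 58.7 in culture WT libraries (log2 fold change -0.97, SE 0.12, adjusted p = 0.00103). Its levels in KO cells were 23.9, 18.2, 23.3 and 20.9 in the node against 52.9 and 58.4 in culture (log2 fold change -1.33, SE 0.13, adjusted p = 2.06e-04). Acly and Acaca, which supply its acetyl and malonyl units, differed less. Acaca fell to 8.57 in node WT against 13.9 in culture WT cells (log2 fold change -0.64, SE 0.12, adjusted p = 0.00772) and missed the threshold in KO cells (log2 fold change -0.32, SE 0.13, adjusted p = 0.0972), and Acly, at 73.2 in node WT against 85.8 in culture WT cells, passed in neither (-0.23 in WT, -0.28 in KO). A joint fit of the 4 OTII groups called 28 members lower in KO cells, with Acly (adjusted p = 0.0330), Dhcr7 (adjusted p = 0.0438) and Srebf2 (adjusted p = 0.0424) among them.

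**Figure D2:**
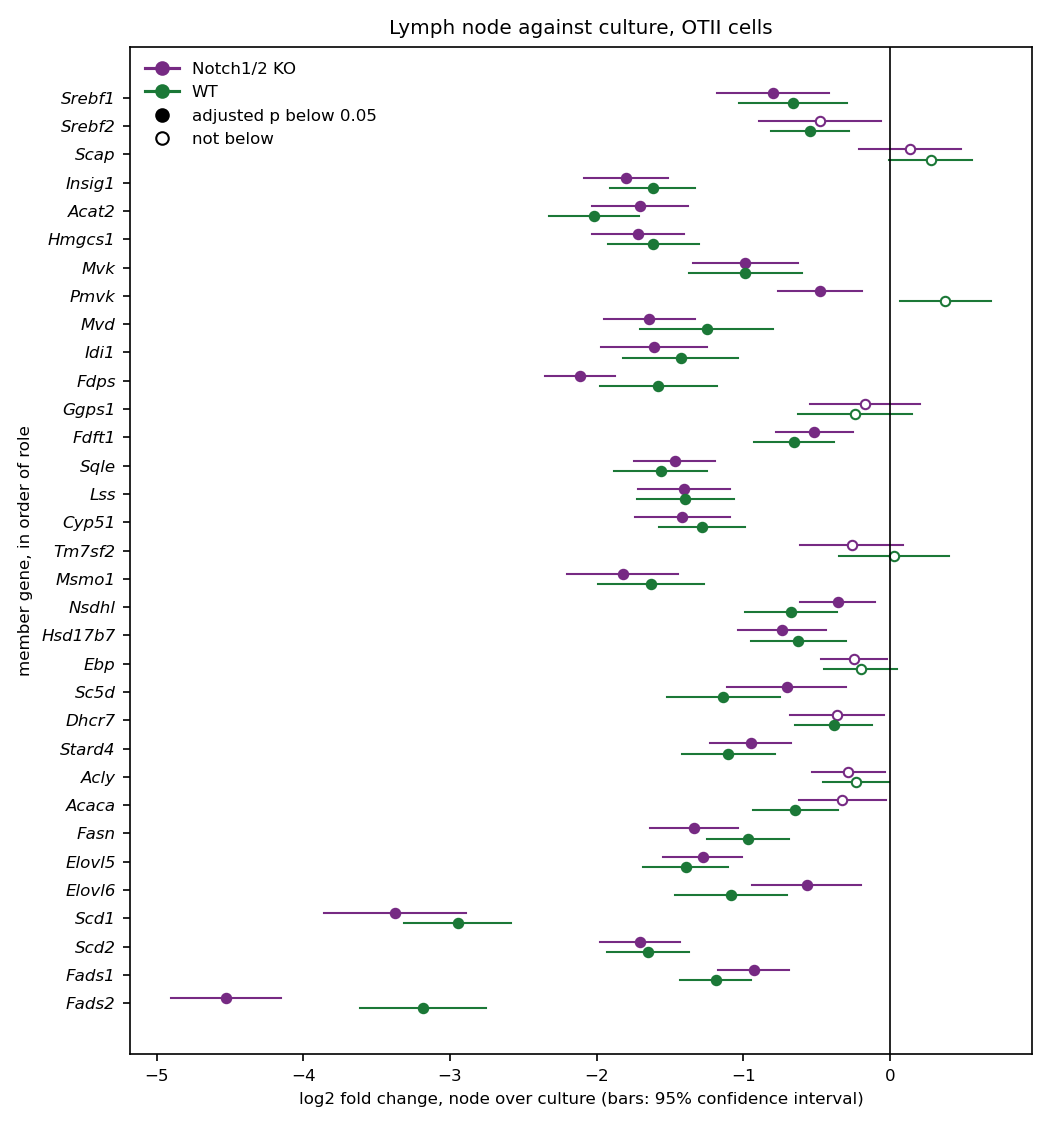
Log2 fold change of lymph node over culture for each of the 33 genes (rows), in Notch1/2 KO cells (purple) and WT cells (green), with bars for the 95% confidence interval and filled points for adjusted p below 0.05. No filled point lies right of 0, and Fads2 and Scd1 lie farthest to the left in both genotypes.

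Genes outside the set gave the same comparison some context. Over all genes tested, 17.5% fell and 13.5% rose in WT node cells, and 15.3% fell and 13.7% rose in KO node cells. Of 18 other fatty acid genes tested, 7 fell (38.9%) and 0 rose in WT node cells. In KO node cells 6 fell (33.3%) and 1 rose (5.56%). Among them, Acsl3, which activates fatty acids, fell to 2.04 in node WT against 9.41 in culture WT cells (log2 fold change -1.80, SE 0.23, adjusted p = 0.00113). Lpin1 and Aacs also fell in WT cells (4.28 in node against 9.39 in culture for Lpin1, 13.4 against 27.2 for Aacs). Of 18 other sterol genes, 10 fell (55.6%) and 1 rose (5.56%) in WT, and 9 fell (50%) and 2 rose (11.1%) in KO node cells. The gene that rose in both was Mbtps1, a protease gene that cuts the Srebf precursors (log2 fold change 0.42, SE 0.11, adjusted p = 0.0269 in WT; log2 fold change 0.56, SE 0.11, adjusted p = 0.00559 in KO). Of 16 genes that burn fatty acids, 4 rose (25%) and 2 fell (12.5%) in WT, and 8 rose (50%) and 1 fell (6.25%) in KO node cells. Decr1, a mitochondrial reductase gene of that route, rose to 17.4 in node WT against 5.98 in culture WT cells (log2 fold change 1.39, SE 0.13, adjusted p = 3.01e-04) and to 17.03 in node KO against 5.93 in culture KO cells. Of 10 genes of the LXR and efflux list, which respond to sterol excess, 2 rose (20%) and 1 fell (10%) in WT cells. In KO cells 2 rose and 2 fell (20% each). These shares lie near those over all genes and say nothing of that list as a whole. Rxra, the partner of the LXR receptors, rose in both genotypes (log2 fold change 0.94, SE 0.13, adjusted p = 0.00199 in WT, and log2 fold change 2.15, SE 0.20, adjusted p = 1.55e-04 in KO).

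The study's title ties Notch to the exit of Th2 cells from the lymph node, and the comparison of Notch1/2 KO with WT cells there asks which genes differ without it. Here 4 of the 33 members fell and 1 rose, where 7.68% of all 10884 genes tested fell and 10.4% rose, so neither share of the members (12.1% lower, 3.03% higher) says anything of the set as a whole. The median log2 fold change of the members was -0.04, against 0.02 over all genes. Without overlap, 4 members lay lower in KO cells (12.1%, against 14.1% of all genes) and 2 higher (6.06%, against 17.2%). Lack of overlap thus says nothing of the set either. The genes that fell were Fads2, Fdps, Pmvk and Fasn, and the gene that rose was Nsdhl.

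Fads2 had 1.04, 1.20, 0.745 and 1.33 in node KO libraries, against 3.93, 6.60 and 4.82 in node WT libraries. The highest KO library lay below the lowest WT library (log2 fold change -1.54, SE 0.17, adjusted p = 5.13e-04). The reads behind these values were 32, 45, 25 and 37 in KO and 106, 208 and 154 in WT libraries. With 0.1 added in place of 1 the log2 fold change was -2.27. Fdps had 12.2, 11.3, 13.2 and 12.9 in node KO libraries, against 16.99, 25.7 and 23.3 in node WT libraries, also without overlap (log2 fold change -0.76, SE 0.13, adjusted p = 0.00542). Pmvk had 30.4, 23.6, 27.3 and 27.5 in node KO libraries, against 44.98, 49.7 and 42.9 in node WT libraries. The KO values lay well under the WT values (log2 fold change -0.74, SE 0.10, adjusted p = 0.00143), and these 3 genes passed under all 14 alternatives tried.

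Fasn had 23.9, 18.2, 23.3 and 20.9 in node KO libraries, against 25.4, 31.8 and 29.7 in node WT libraries. The groups came close without overlap (log2 fold change -0.41, SE 0.12, adjusted p = 0.0397), and the call was lost without node WT replicate 2 or 3 or node KO replicate 3 or 4 (highest adjusted p = 0.169) and with no filter on low genes. Nsdhl had 16.9, 18.3, 18.5 and 17.97 in node KO libraries, against 11.9, 14.4 and 14.7 in node WT libraries. All KO values lay above all WT values (log2 fold change 0.37, SE 0.094, adjusted p = 0.0252), and the call was lost without any 1 of the node WT libraries or without node KO replicate 3 or 4 (highest adjusted p = 0.0839). With libraries that share a first header number averaged, the Fasn call was lost too. Another 3 genes passed as lower with 1 library left out: Mvd without node WT replicate 1 (log2 fold change -0.58, adjusted p = 0.0316), and, without node KO replicate 2, Idi1 (log2 fold change -0.44, adjusted p = 0.0280) and Msmo1 (log2 fold change -0.43, adjusted p = 0.0467).

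The regulators and the other sterol and fatty acid enzymes did not pass. Srebf1 averaged 37.5 ± 6.71 in node KO and 36.3 ± 3.53 in node WT cells, and Srebf2 averaged 74.6 ± 14.1 and 68.8 ± 4.37 (SD, n = 4 KO and 3 WT). Their log2 fold changes were 0.033 and 0.10, with 95% confidence intervals of -0.29 to 0.36 and -0.24 to 0.43. For Insig1, Hmgcs1 and Sqle the intervals ran from -0.45 to 0.042, -0.45 to 0.039 and -0.22 to 0.26. For Scd1 and Scd2 they ran from -0.65 to 0.048 and -0.34 to 0.14. These intervals are on the log2(scaled RPKM + 1) scale, which narrows the one of Scd1, whose levels lie near 1.

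In the same cells 6 of 16 genes that burn fatty acids rose (37.5%, against 10.4% of all genes tested) and 0 fell (against 7.68%). Acadl rose to 55.3 in node KO against 36.7 in node WT cells (log2 fold change 0.57, SE 0.092, adjusted p = 0.00347), Acadvl to 66.6 against 49.6 (log2 fold change 0.42, SE 0.070, adjusted p = 0.00436) and Eci2 to 38.1 against 27.3 (log2 fold change 0.46, SE 0.091, adjusted p = 0.00880), which are acyl-CoA dehydrogenase and isomerase genes of fatty acid oxidation. Of 18 other sterol genes 1 rose (5.56%) and 2 fell (11.1%), near the shares over all genes. Soat1, which makes cholesterol esters for storage, rose to 16.4 in node KO against 9.44 in node WT cells (log2 fold change 0.73, SE 0.12, adjusted p = 0.00351), and Tmem97 (log2 fold change -0.64, SE 0.14, adjusted p = 0.0143) and Cyb5b (log2 fold change -0.31, SE 0.075, adjusted p = 0.0212) fell. In the LXR and efflux list 2 of 10 rose (20%), led by Rxra (log2 fold change 1.33, SE 0.16, adjusted p = 9.10e-04), and 1 fell (10%). These shares too say nothing of that list as a whole. Of 18 other fatty acid genes 0 passed. Cell cycle genes fell in 6 of 24 cases (25%, median log2 fold change -0.25), and other lists moved too. Of 5 Th2 genes 3 fell, Gata3 among them (log2 fold change -0.47, SE 0.11, adjusted p = 0.0169), and the list summed to 56.7 to 90.9 in node KO and 106 to 133 in node WT libraries. The other 2 went the other way without a call. Il13 averaged 15.5 in node KO against 10.0 in node WT cells, and Il5 1.82 against 1.15. Basophil and mast cell genes summed to 0.136 to 0.724 in node KO and 2.35 to 2.72 in node WT libraries, with Hdc at 0.192 against 2.12 and Mcpt8, Ms4a2 and Fcer1a at 0 in both groups. CD8 and NK genes summed to 4.03 to 5.13 in node KO and 6.81 to 9.64 in node WT libraries, with Klrb1c at 0.272 against 4.20. That sum mostly follows Klrb1c. Cd8b1 went the other way without a call, at 4.11 in node KO against 3.57 in node WT cells, and Cd8a was at 0.268 against 0.589. Of 3 macrophage genes tested 1 fell, and that list summed to 44.4 to 63.3 in node KO and 58.8 to 77.4 in node WT libraries. The part of any of these lists in the 5 calls was not tested.

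In culture the same genotype comparison called 0 of 33 members and 0% of all 10984 genes tested in either direction, with 0 members at an unadjusted p under 0.05. A voom test on reads called 0 members and 2 genes in all. The culture KO libraries had 41.5 and 52.6 for Fads2, against 51.4 and 56.2 in culture WT libraries, which overlapped (-0.20 (SE 0.17) on the log2 scale, 95% confidence interval -0.59 to 0.20). Pmvk had 35.4 and 40.9 in culture KO against 30.8 and 39.5 in culture WT libraries (interval -0.29 to 0.53), with overlap too. Fdps had 57.05 and 57.01 in culture KO against 63.7 and 69.9 in culture WT libraries, both KO values below both WT values (interval -0.57 to 0.12). Of all genes tested, 10.8% lay lower without overlap in this way. For Srebf1, Srebf2, Insig1, Hmgcs1 and Sqle the intervals were -0.27 to 0.61, -0.35 to 0.41, -0.39 to 0.34, -0.51 to 0.31 and -0.46 to 0.31. For Fasn, Scd1 and Scd2 they were -0.39 to 0.30, -0.40 to 0.66 and -0.41 to 0.32. With 2 libraries a group this comparison could miss a large effect. Notch1 itself had 4.29 and 1.07 in culture KO libraries, against 26.7 and 29.9 in culture WT libraries, and was not called (log2 fold change -3.14, SE 0.38, adjusted p = 0.320).

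Whether the KO effect itself differed between node and culture was tested as an interaction over the 11 OTII libraries. It was lower in the node for 2 of 33 members and higher for 0, where 1.5% of all 11526 genes tested were lower and 2.34% higher. For Fads2 the KO effect was -1.54 (SE 0.17) in the node and -0.20 (SE 0.17) in culture, a difference of -1.34 (SE 0.26) with adjusted p = 0.0158. That difference was -1.94 with 0.1 added in place of 1 (adjusted p = 0.0108) and -2.05 with voom on reads (adjusted p = 0.00512). For Pmvk it was -0.74 (SE 0.10) in the node and 0.12 (SE 0.18) in culture, a difference of -0.86 (SE 0.19) with adjusted p = 0.0295. The Fads2 difference was lost without culture WT replicate 1 or culture KO replicate 2 (highest adjusted p = 0.0939). That of Pmvk was lost without any 1 of the node WT libraries, node KO replicate 3 or 4, culture WT replicate 1 or culture KO replicate 2 (highest adjusted p = 0.140), and with libraries of a shared header number averaged. Fdps did not pass (difference -0.54 (SE 0.20), adjusted p = 0.190), though it passed without node WT replicate 1 (-0.70, adjusted p = 0.0297), and neither did Fasn (-0.37 (SE 0.18), adjusted p = 0.302). For Srebf1, Srebf2, Insig1, Hmgcs1, Sqle, Scd1 and Scd2 the differences were -0.14, 0.069, -0.18, -0.11, 0.095, -0.43 and -0.056, none of which passed. Outside the set, Soat1, Rxra and Acadl had higher KO effects in the node, by 1.05, 1.22 and 0.71 on the log2 scale (adjusted p = 0.0266, 0.0309 and 0.0198).

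**Figure D3:**
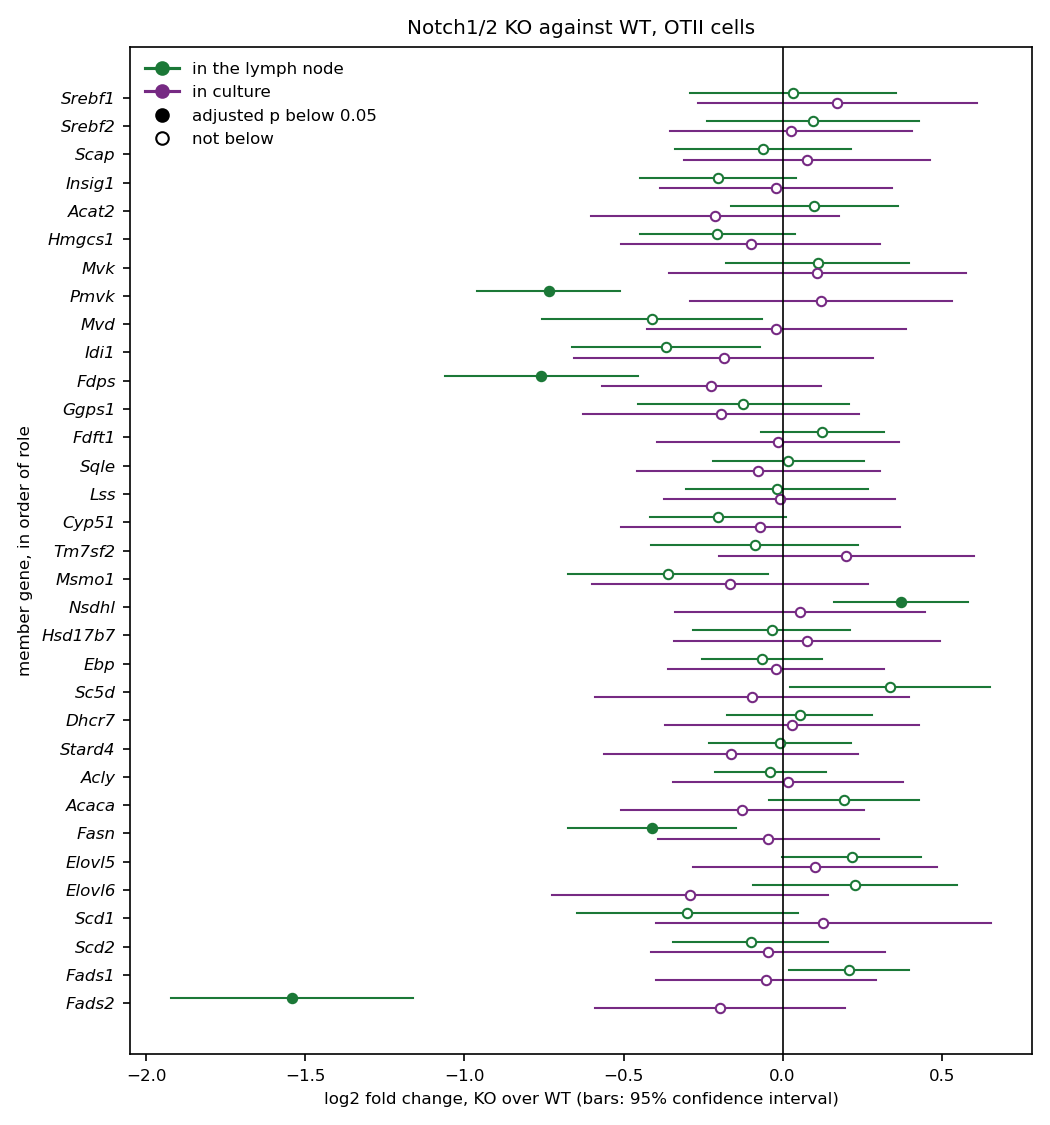
Log2 fold change of Notch1/2 KO over WT for each of the 33 genes (rows), in the lymph node (green) and in culture (purple), with bars for the 95% confidence interval and filled points for adjusted p below 0.05. Filled points are Pmvk, Fdps, Fasn and Fads2 left of 0 and Nsdhl right of 0, all in the node.

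Airway against lymph node in reporter mice asks how cells that reached the lung lumen differ from those in the node. Of the 31 members tested, 1 fell and 0 rose, where 2.31% of all 10121 genes tested fell and 2.96% rose. The gene that fell was Scd2. Among all calls, 56.2% were higher in the airway after scaling and 41.9% with RPKM as deposited, where the median of all genes was -0.20 in place of -0.07. Airway libraries were the most variable of the study: of 3115 genes that reached 20 scaled RPKM throughout the OTII libraries, the airway libraries list 39, 53 and 2 at 0, against at most 1 in a reporter node library.

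Scd2 had 4.75, 2.04 and 1.99 in airway libraries, against 19.7, 16.3 and 16.1 in reporter node libraries. All airway values lay far below all node values (log2 fold change -2.29, SE 0.45, adjusted p = 0.0223), and the call was lost without any 1 of the reporter node libraries (highest adjusted p = 0.139) and with no filter on low genes. Scd1 was barely detected, with 0, 1 and 0 reads in airway and 2, 82 and 4 reads in reporter node libraries. Fads2 had 0 reads in all 3 airway libraries, which allows up to 0.106 to 0.116 scaled RPKM, and 0, 1 and 0 reads in reporter node libraries. Neither of these genes was tested in this comparison. Fads1, beside Fads2 on chromosome 19, had 42.8, 22.3 and 8.26 in airway and 7.75, 8.19 and 5.45 in reporter node libraries, which missed the threshold (log2 fold change 1.40, SE 0.56, adjusted p = 0.202). Without airway replicate 3, the lowest airway value, Fads1 passed as higher (log2 fold change 1.99, adjusted p = 0.0486).

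Several sterol genes were higher in every airway library than in any node library without passing. Msmo1 had 32.95, 47.1 and 42.3 in airway libraries, against 16.1, 14.7 and 23.4 in reporter node libraries (log2 fold change 1.14, SE 0.29, adjusted p = 0.0561). It passed without airway replicate 1 (log2 fold change 1.29, adjusted p = 0.0428). Cyp51 had 37.4, 49.95 and 40.2 in airway libraries, against 24.5, 22.9 and 14.4 in reporter node libraries (log2 fold change 1.03, SE 0.28, adjusted p = 0.0780). Insig1 had 33.5, 25.6 and 29.4 in airway libraries, against 9.33, 16.5 and 19.6 in reporter node libraries (log2 fold change 0.97, SE 0.34, adjusted p = 0.149). In all, 8 of 31 members (25.8%) were higher in every airway library, where 13.1% of all genes tested were. They comprise Insig1, Mvk, Ggps1, Cyp51, Msmo1, Hsd17b7, Elovl5 and Fads1. The members' median log2 fold change was 0.23, against -0.07 over all genes tested. It was 0.042 without reporter node replicate 1, 0.084 without airway replicate 3 and 0.16 to 0.24 without any other library. By role the direction was mixed. Of the 8 mevalonate and prenyl genes 7 had a positive and 1 a negative fold change (median 0.31). Among the 11 later sterol genes 5 were positive and 6 negative (median -0.06).

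The other members named in every comparison overlapped between airway and node. Srebf1 had 20.6, 35.02 and 19.4 in airway and 41.9, 25.8 and 22.6 in reporter node libraries (log2 fold change -0.26, SE 0.34, adjusted p = 0.730). Srebf2 had 35.2, 35.4 and 59.6 in airway and 42.8, 44.1 and 48.96 in reporter node libraries (log2 fold change -0.10, SE 0.26, adjusted p = 0.870). Hmgcs1 and Sqle averaged 21.8 ± 4.52 and 24.97 ± 5.83 in airway cells, against 19.97 ± 7.56 and 19.9 ± 7.48 in reporter node cells (SD, n = 3 each; adjusted p = 0.846 and 0.641). Fasn was low in both, at 5.15, 2.03 and 3.05 in airway and 3.34, 3.73 and 4.39 in reporter node libraries (log2 fold change -0.18, SE 0.50, adjusted p = 0.880). Single airway libraries lacked some genes that the others held: Lss had 5, 1912 and 1414 reads in the 3 airway libraries, Tm7sf2 had 197, 0 and 81 and Acaca had 22, 2 and 310. Of the other sterol genes 1 of 18 passed, Npc2, a lysosomal sterol carrier gene, which rose to 146 in airway against 54.3 in reporter node cells (log2 fold change 1.40, SE 0.21, adjusted p = 0.00832). Of 16 other fatty acid, 9 LXR and efflux and 15 fatty acid oxidation genes tested, 0 passed.

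Markers of other cells moved with this comparison. All 11 macrophage genes tested rose, and the 13 of that list summed to 3621 to 8182 in airway libraries, against 83.5 to 129 in reporter node libraries, where 6 of them were listed at 0 in every library. Basophil and mast cell genes summed to 182 to 324 in airway and 602 to 929 in reporter node libraries, and Ms4a2 and Fcer1a were at 0 in all of them. Of 24 cell cycle genes, 17 fell in the airway (median log2 fold change -2.43). The part of these genes in the airway values of the synthesis genes was not tested.

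**Figure D4:**
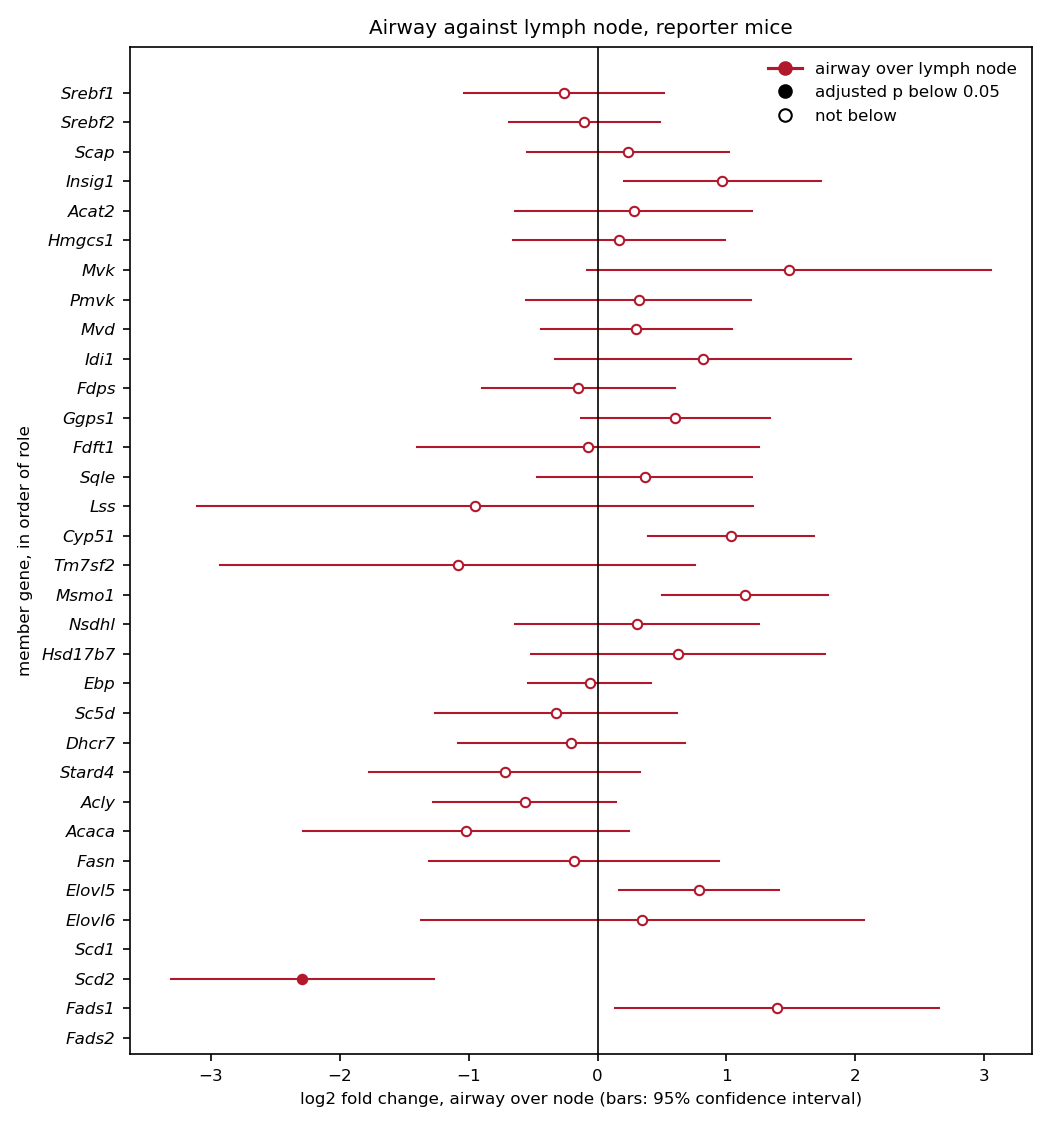
Log2 fold change of airway over lymph node in reporter mice for the 31 genes tested (rows), with bars for the 95% confidence interval. The filled point, adjusted p below 0.05, is Scd2, and Scd1 and Fads2 have no point because they were not tested.

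Reporter and OTII cells came from different mice and were not tested against each other, so their levels are set side by side. Their libraries also differed in markers of other cells. Basophil and mast cell genes summed to 602 to 929 in reporter node and 2.35 to 2.72 in node WT libraries. The part of such transcripts in the levels below was not tested. In the node Fasn had a mean of 3.82 in reporter and 28.99 in OTII WT cells, Acaca 2.06 and 8.57, Scd2 17.4 and 88.97, and Fads2 0.0118 and 5.12. Of 18 sterol synthesis genes (Pmvk left out), 16 were higher in reporter cells and 2, Mvk and Tm7sf2, lower, with Fdps at 49.2 in reporter and 21.98 in OTII WT node cells, Sc5d at 30.1 and 12.4, Ebp at 71.2 and 35.6 and Nsdhl at 27.2 and 13.7. Of the regulators only Insig1 was not lower in reporter cells, and Stard4 was lower. Long transcripts were lower in reporter libraries as a whole. The median log2 difference, reporter minus OTII WT node, was -1.40 over 342 genes with transcripts longer than 8000 bases and 0.28 over 2657 genes of up to 1500 bases. It was 0.11 over 4010 genes of 1500 to 3000 bases (quartiles -0.56 and 0.61) and -0.40 over 2993 genes of 3000 to 5000 bases (quartiles -1.18 and 0.23). Over the 18 sterol synthesis genes the median was 0.65. The share of all genes higher in reporter cells was not computed. Fasn (9893 bases) stood at -2.64 and Acaca (8976 bases) at -1.65 on that scale. Fads2 has a short transcript (1494 bases) and stood at -2.60, and Scd2 (5443 bases) stood at -2.29 where the median of 1170 genes of 5000 to 8000 bases was -1.06. For Pmvk the tables used another transcript in reporter (1183 bases) than in OTII libraries (972 bases), so its levels are not comparable across them.

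**Figure D5:**
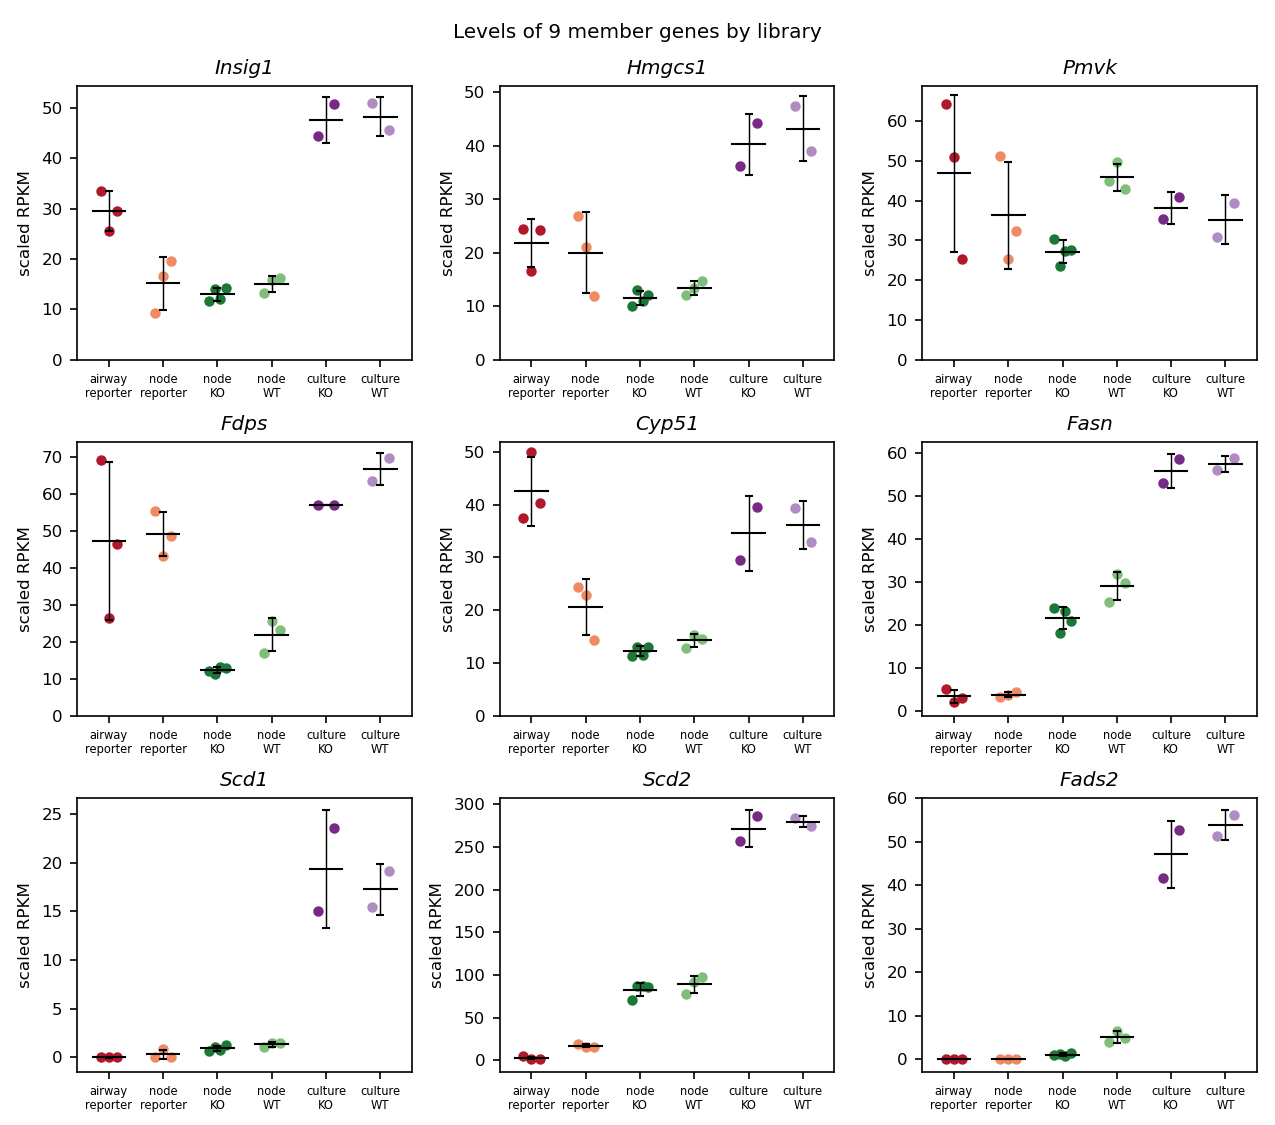
Scaled RPKM (vertical axes, each from 0) of 9 member genes in the 6 groups, with 1 point per library, a horizontal line at the mean and a bar for 1 SD. Fasn, Scd2 and Fads2 are lowest in the reporter groups on the left and highest in the culture groups on the right, while Fdps and Cyp51 are lowest in the node OTII groups.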

How the data were processed

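RNA was sequenced from 17 libraries in 6 groups, assigned from the labels. HISAT2 2.0.4, HOMER and DESeq2 are named with mm10 in the submitters' processing notes, without roles. The deposited values are RPKM, made by the authors with 1 transcript per gene, per the file headers. How strands and shared reads were counted is not given in the sources used here. Since 100% of values under 100 reads came out whole within 0.1, reads per gene were read back and used for voom and for detection limits, which are 3 reads and cover counting error only.

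RPKM was divided by a median-of-ratios factor over the 6796 genes that had RPKM of 1 or more in every library. A gene was tested where its scaled RPKM was 1 or more in at least as many libraries as there are in the smaller group, on log2(scaled RPKM + 1) with limma 3.58.1 in R 4.3.3 (empirical Bayes with an intensity trend, two-sided, Benjamini-Hochberg, adjusted p below 0.05). A fold change on that scale understates the change of low genes. Scripts were tested on simulated data. No 2 libraries held identical values. The 33 genes, the other gene lists and the tests were chosen with earlier results of these data known. In each comparison, values are given for called members (the 6 highest and 6 lowest where there were more than 12), for Srebf1, Srebf2, Insig1, Hmgcs1, Sqle, Fasn, Scd1 and Scd2, and for up to 3 called genes of each other list, not all of which are named. Alternatives were RPKM as deposited, an added 0.1, no filter, voom on reads, a replicate block, a joint fit of the OTII groups, each library left out and averaged header numbers.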

Additional observations from a re-analysis of the deposited data

Results flagged for a closer look

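In the 4 node KO libraries Scd2 had 1 value apart from the rest: replicate 1 had 71.2 scaled RPKM and the others 85.7 to 87.2, a gap of 0.904 of the whole range, over Dixon's 95% limit for 4 values. Chance flags about 1 in 20 groups in this way. The KO effect differed between lymph node and culture for Fads2, by -1.34 on the log2 scale, and for Pmvk, by -0.86, in the interaction test. Both passed in limma (adjusted p = 0.0158 for Fads2 and 0.0295 for Pmvk), and both calls depend on single libraries named with them above.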

How the results depend on the processing

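Among the members, the counts lower in the node than in culture were 26 in WT and 21 in KO cells with the replicate block, 27 and 28 with the joint fit, 26 and 25 with shared header numbers averaged, and without 1 library they ran from 25 to 26 in WT and from 19 to 26 in KO cells. The block ended the WT call of Dhcr7 and the KO calls of Nsdhl, Fdft1, Pmvk and Elovl6 there, the calls of Fasn and Nsdhl between node KO and WT cells, and the interaction of Pmvk. The block used the replicate numbers. Deviations of same-numbered node KO and WT libraries correlated at 0.051, -0.48 and -0.45, and those of airway and reporter node libraries at 0.0103 or less. Culture KO and WT libraries correlated at -0.23, and node and culture libraries at 0.20 in WT and 0.14 in KO cells. These values do not show a pairing by replicate number. The column names number the node libraries otherwise: node WT replicate 2 and node KO replicate 3 share the numbers 2 and 1. Node WT replicate 3 and node KO replicate 4 share 2 and 2. Pairing by the column names was not checked. With the block, node KO against WT gave 0 members higher and 3 lower, with 381 genes higher and 255 lower. It gave 31 genes higher and 34 lower in culture, 942 and 1008 between KO node and culture cells, and 101 and 65 with 1 member lower for the interaction, and it changed no member count in the airway comparison. With shared header numbers averaged, 961 genes were higher between WT node and culture cells, and the interaction gave 155 higher and 102 lower with 1 member lower. Airway calls over all genes were 127 higher and 98 lower with no filter, where 0 members were lower, 143 and 93 with voom, and 145 lower with 0.1 added. Voom called 1 gene higher and 1 lower in culture, and the joint fit 1 lower. Without 1 library, airway calls ran from 83 to 288 higher and 30 to 294 lower (members 0 to 1 either way). For node KO they ran from 610 to 1564 higher (members 0 to 1) and 405 to 1157 lower, and for culture KO from 0 to 29 and 0 to 37. Between node and culture they ran from 892 to 2052 higher in WT (members 0 to 2), and from 731 to 2008 higher and 950 to 2235 lower in KO cells. For the interaction they ran from 115 to 355 higher and 76 to 229 lower (members lower 0 to 2). Members that did not pass could change sign. Sqle in node KO cells was -0.012 with RPKM as deposited and -0.0061 with voom, and Insig1 in culture KO cells was 6.3e-04 with RPKM as deposited. Without 1 library, log2 fold changes in node KO cells were -0.093 to 0.090 for Sqle and -0.033 to 0.16 for Srebf1. In the airway they were -0.45 to 0.055 for Fasn, -0.15 to 0.41 for Hmgcs1 and -0.35 to 0.023 for Srebf2. In culture KO cells they were -0.12 to 0.026 for Fasn, -0.24 to 0.041 for Hmgcs1, -0.12 to 0.076 for Insig1, -0.18 to 0.44 for Scd1, -0.12 to 0.035 for Scd2, -0.23 to 0.077 for Sqle, -0.067 to 0.41 for Srebf1 and -0.094 to 0.15 for Srebf2. For the interaction they were -0.25 to 0.035 for Hmgcs1, -0.15 to 0.024 for Scd2, -0.059 to 0.25 for Sqle, -0.38 to 0.10 for Srebf1 and -0.052 to 0.21 for Srebf2. The cause of these changes was not tested. Where 1 library was left of 2, it was assumed to vary like the other group. In reporter cells most libraries hold a few reads or none of Fads2 and Scd1, and whether these genes were absent or missed was not tested.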
